A study of Homo sapiens with 10 samples.

Results

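The genes described here encode plasma carrier proteins of the hepatocyte together with its fetal counterpart of albumin: ALB, AFP, TTR, RBP4, TF, AMBP, AHSG, GC, VTN and FETUB. They were taken by gene name from the count table, and each of the 10 names matched 1 of its 32738 rows. HepG2 cells, a human hepatoma line, were grown for 17 h in regular medium (untreated) or in medium with 2 µg/ml tunicamycin. Both conditions used the same line with no genetic change, and each holds 5 libraries from experiments on separate days. RNA was measured by sequencing the 3′ ends of mRNAs, which counts a transcript about equally whatever its length, so that levels of different genes can be set side by side. Values below are normalized counts, that is, deposited counts brought to a common library size after TMM scaling.

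Plasma proteins are made on ribosomes bound to the endoplasmic reticulum (ER), folded inside it and secreted. Many receive N-glycans there, on asparagine in the sequence N-X-S or N-X-T (a sequon, where X is not proline), and tunicamycin blocks the first step of making that glycan. Albumin and retinol-binding protein 4 (RBP4) circulate without N-glycans, and so does transthyretin (TTR), whereas α-fetoprotein (AFP), transferrin (TF), α1-microglobulin/bikunin (AMBP), fetuin-A (AHSG), fetuin-B (FETUB) and vitronectin (VTN) are N-glycoproteins. The vitamin D-binding protein (GC) was placed with them, although it is known mainly for O-glycans. The comparison therefore asks whether the transcripts of carriers with and without N-glycans differed in their response.

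Sequons were counted in the translated coding sequence of each gene's MANE Select transcript (GENCODE v44). ALB and RBP4 had 0 sequons, while TTR had 1, at residue 118 of its precursor. GC also had 1, AFP, TF and AHSG had 2 each, AMBP and VTN had 3 each and FETUB had 4. The coding DNA around the sequons of AFP, TF and AHSG is given because these 3 are the abundant glycoproteins of the group, with the codons for asparagine, X and serine or threonine in capitals and residues counted from the initiator methionine.
AFP residue 14, exon 1 of 15: ttcctactaAATTTTACTgaatccaga
AFP residue 251, exon 7 of 15: accaaagttAATTTTACTgaaatccag
TF residue 432, exon 11 of 17: gaaaactacAATAAGAGCgataattgt
TF residue 630, exon 16 of 17: tttggaagcAACGTAACTgactgctcg
AHSG residue 156, exon 4 of 7: gccccgctgAACGACACCagggtggtg
AHSG residue 176, exon 4 of 7: gctcagaacAACGGCTCCaattttcag
Both AFP sequons read AATTTTACT, and the first of them lies in the signal peptide, which is removed from the mature protein.

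ALB, AFP and GC belong to a single gene family on chromosome 4, as does AFM (afamin, a vitamin E carrier). In GRCh38 ALB spans chr4:73397114-73421482 and AFP chr4:73431138-73456174, both on the plus strand, with 9.7 kb between them, and AFM follows 25.6 kb further on. GC lies 1593.1 kb before ALB on the minus strand (chr4:71741696-71804041). The precursors of ALB and AFP were identical at 40.1% of 608 aligned residues, and those of ALB and GC at 26.6% of 470. AHSG (chr3:186613060-186621318) and FETUB (chr3:186635969-186653141) are neighbours on chromosome 3, 14.6 kb apart, with 29.7% identity. TF lies on the same chromosome (chr3:133746040-133796641), AMBP at chr9:114060127-114078328, RBP4 at chr10:93591687-93601744, VTN at chr17:28367284-28373091 and TTR at chr18:31557009-31598833.

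The promoters of ALB, AFP and TF are given for the 150 bases before the transcription start, from RefSeq (GRCh38.p14, plus strand), since the first 2 are the adjacent relatives and TF is the N-glycoprotein gene that was called lower. Capitals mark the TATA box (TATAAA) and the CCAAT box (CCAAT), on either strand.
ALB, chr4:73404137-73404286: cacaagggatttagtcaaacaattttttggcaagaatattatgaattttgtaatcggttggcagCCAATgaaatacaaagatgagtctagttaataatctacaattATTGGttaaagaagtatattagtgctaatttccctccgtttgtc
AFP, chr4:73436071-73436220: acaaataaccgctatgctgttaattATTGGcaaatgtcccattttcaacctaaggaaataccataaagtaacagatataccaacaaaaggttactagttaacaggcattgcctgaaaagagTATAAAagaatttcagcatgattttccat
TF, chr3:133746243-133746392: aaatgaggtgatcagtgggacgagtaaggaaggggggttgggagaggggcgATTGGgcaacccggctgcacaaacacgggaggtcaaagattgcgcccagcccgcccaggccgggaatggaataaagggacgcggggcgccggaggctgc

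Promoter windows from 250 bases before to 50 after the start that matched the MANE Select start were found for 8 members, all but TTR and GC. The TATA box was found in 2 of them, in AFP at -29 to -24 and in RBP4 at -31 to -26, against 11.5% of 35116 windows in the whole table. The CCAAT box was found in 6 of the 8 (34.6% of all windows). The short C/EBP site TTGCNNAA was found in 7, all but AMBP (10.5% of all windows), and the HNF4 site CAAAGTCCA in AHSG alone (0.384%). The ER stress element, named here by its usual abbreviation ERSE, was found in none of the 8 (0.0769% of all windows). Neither was the CRE (TGACGTCA, 1.85%) nor the composite C/EBP-ATF site TGATGCAA (0.866%). Absence of motifs this rare from 8 windows is not a result about the members. The AP-1 site TGACTCA was found in RBP4 alone (4.95% of all windows). All motifs were searched on both strands. In TF and VTN a CCAAT box overlaps the short C/EBP site.

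The libraries held 4242538 to 4888292 counts in untreated and 2234682 to 5029864 in tunicamycin-treated cells, the lowest total being that of tunicamycin replicate 5. Mitochondrial transcripts took 22.7% to 25.2% and 18.3% to 28.8% of the counts. HSPA5, the ER chaperone BiP, checked the treatment and rose to 66202 ± 4410 from 8445 ± 559 normalized counts (mean ± SD, n = 5 per condition). All 8 hepatocyte markers examined, ALB included, passed the filter, and 5 were called lower with tunicamycin, beside 16.6% of all tested genes. Among them was APOB at 32551 ± 1507 normalized counts in untreated cells. Of the markers of leukocytes, endothelium, fibroblasts and bile duct, 11 were in the table, PTPRC, CD3E and DCN had 0 counts in all 10 libraries, and the summed level of the 11 was 16.6 to 37.6 normalized counts in untreated and 10.1 to 50.8 in treated libraries. Of these 11 markers only CD68, expressed in macrophages, passed the filter, and it was called lower (log2 fold change -0.83, adjusted p = 0.0319); its part in the results was not tested. In total the 10 members took 0.837% to 1.33% of the counts of untreated libraries and 0.884% to 0.994% of those of treated libraries. In bulk RNA, fewer cells and less RNA per cell cannot be told apart.

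Of the 10 genes, 9 passed the filter on low counts, and 2 of them were called changed, that is, edgeR's quasi-likelihood fit gave them an adjusted p below 0.05. TTR and TF were lower, 0 were higher, and the other 7 were not called. Over all 12733 genes tested, 16.6% were called lower and 17.6% higher. The share of members called lower was thus near the background, and no member was among the higher genes. Among the 569 tested genes with a mean of at least 1000 normalized counts, 21.6% were called lower and 34.8% higher. ALB, RBP4, AFP, TF, AMBP and AHSG were at that level. TTR, which carries thyroid hormone and holds RBP4 in plasma, changed most among the well-measured members, and it is a product without N-glycans. The remaining 2 carriers without N-glycans, ALB and RBP4, had log2 fold changes of 0.04 and 0.02.

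**Figure D1:**
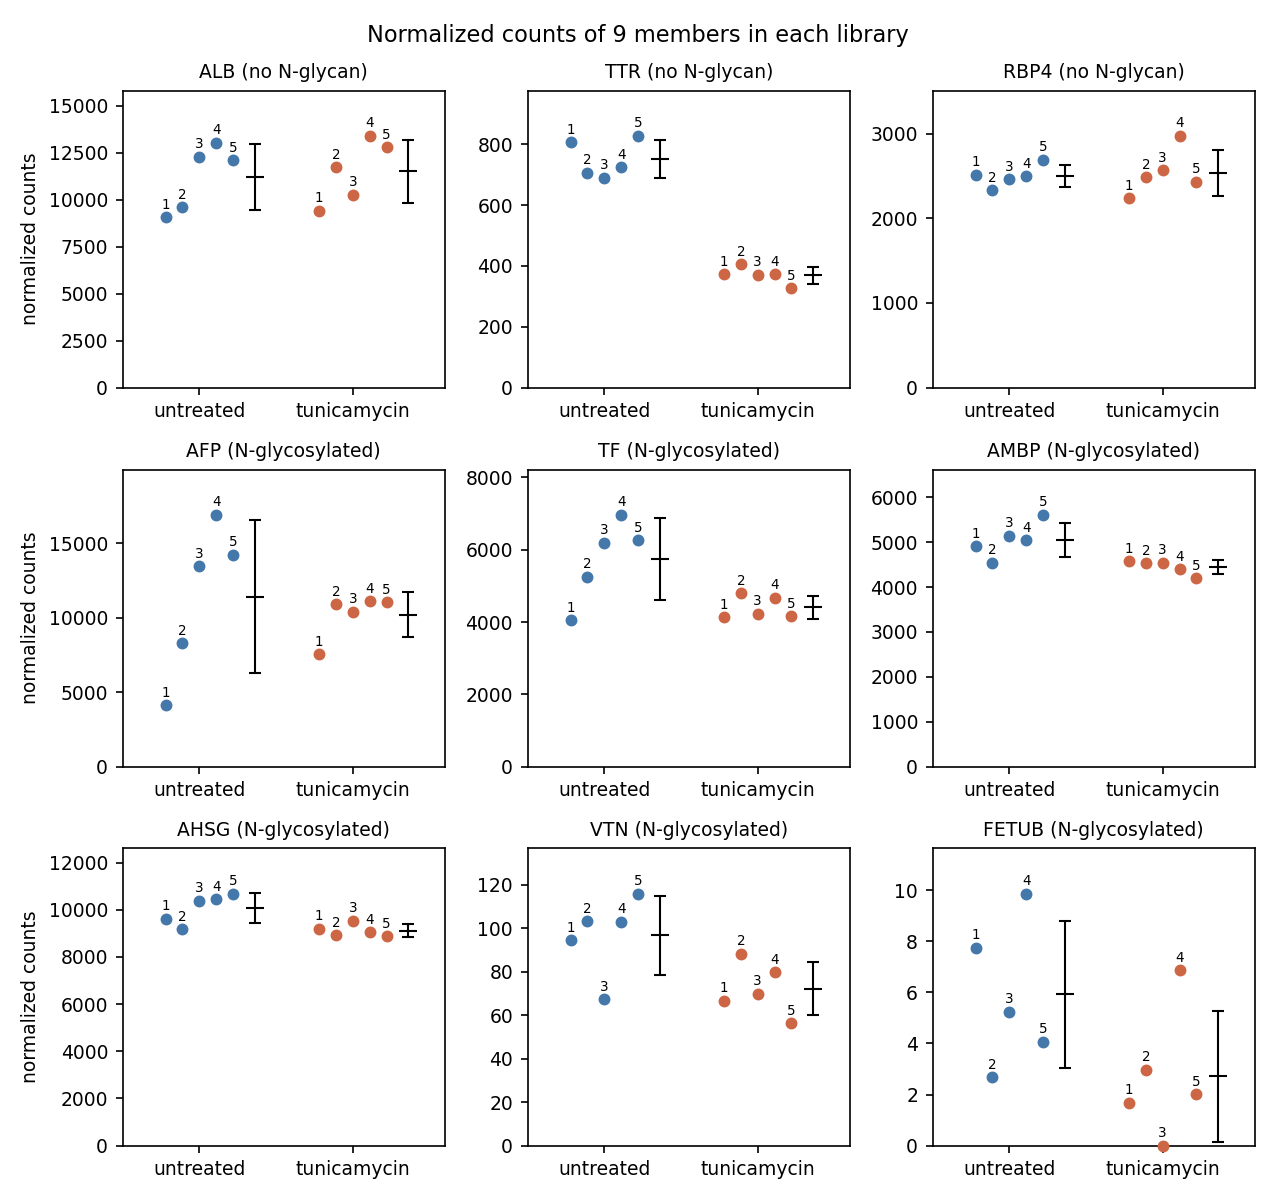
Normalized counts of the 9 tested members in each library, with the replicate number above each point and the mean ± SD (n = 5) at the right of each group; each panel has its own linear axis from 0. For TTR every tunicamycin library (327 to 405) lies below every untreated library (690 to 827), whereas for ALB and RBP4 the groups overlap, and for AFP the untreated libraries spread from 4138 to 16911.

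Transthyretin (TTR, ENSG00000118271) had 807, 706, 690, 724 and 827 normalized counts in untreated replicates 1 to 5. In tunicamycin replicates 1 to 5 it had 372, 405, 371, 372 and 327. The highest treated library stood well below the lowest untreated one, and the ratio was below 0 on the log2 scale in 5 of 5 pairs, from -1.34 to -0.80. TTR fell to 370 ± 27.8 from 751 ± 62.1 normalized counts (mean ± SD, n = 5 per condition), or to 49.4% of the untreated level by the fit. The log2 fold change was -1.02 (standard error 0.09, edgeR's quasi-likelihood test, adjusted p = 5.38e-08). The exact permutation test over libraries gave a two-sided p of 0.00794, the smallest that 5 against 5 allow. Among all tested genes, 11.9% had every treated library below every untreated one, and TTR was the only member of which this was true.

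Retinol-binding protein 4 (RBP4, ENSG00000138207), the vitamin A carrier that circulates bound to TTR, had 2513, 2331, 2461, 2496 and 2691 normalized counts in untreated replicates 1 to 5. With tunicamycin it had 2234, 2483, 2570, 2973 and 2433. The treated values lay on both sides of the untreated ones, with 2 pairs lower and 3 higher. Its log2 fold change was 0.02, with a 95% confidence interval of -0.16 to 0.21 (edgeR's quasi-likelihood test, adjusted p = 0.865). The ratio of TTR to RBP4 transcripts was 0.28 to 0.321 in untreated libraries and 0.125 to 0.167 in treated libraries, so this pair of plasma partners stood in a different proportion in every treated library.

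Albumin (ALB, ENSG00000163631), the main carrier of fatty acids and of many drugs, had 9077, 9591, 12282, 13025 and 12097 normalized counts in untreated replicates 1 to 5. With tunicamycin it had 9411, 11719, 10264, 13397 and 12803. In both conditions replicate 1 was the lowest and replicate 4 the highest library. The means were 11214 ± 1761 and 11519 ± 1676 (mean ± SD, n = 5 per condition), and the log2 fold change of 0.04 had a 95% confidence interval of -0.20 to 0.28 (edgeR's quasi-likelihood test, adjusted p = 0.827). ALB ranked 24 by mean level among tested genes in untreated and 28 in treated cells.

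α-Fetoprotein (AFP, ENSG00000081051), the albumin of fetal plasma that hepatomas often make again, was the least even of the abundant members. Untreated replicates 1 to 5 had 4138, 8296, 13483, 16911 and 14246 normalized counts, and treated replicates had 7554, 10915, 10413, 11099 and 11063. The treated values lay inside the range of the untreated ones, whose highest library was 4.09-fold above its lowest, against 1.47-fold with tunicamycin. Within pairs AFP was higher with tunicamycin in replicates 1 and 2 (0.87 and 0.40 on the log2 scale) and lower in replicates 3 to 5 (-0.37, -0.61 and -0.36). The log2 fold change was -0.16 with a 95% confidence interval of -0.67 to 0.34 (edgeR's quasi-likelihood test, adjusted p = 0.645), and -0.02 with the replicate number as a block (adjusted p = 0.925). Without both libraries of replicate 1, a choice made after these values were seen, it was -0.28 (adjusted p = 0.0978). Without untreated replicate 4 it was 0.03 and without untreated replicate 1 it was -0.38, so that the direction of AFP was not settled by these libraries. The coefficient of variation in untreated cells was 44.9%, and only 3 of the 569 tested genes with a mean of at least 1000 normalized counts had a larger one; the median of these genes was 8.8%.

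**Figure D2:**
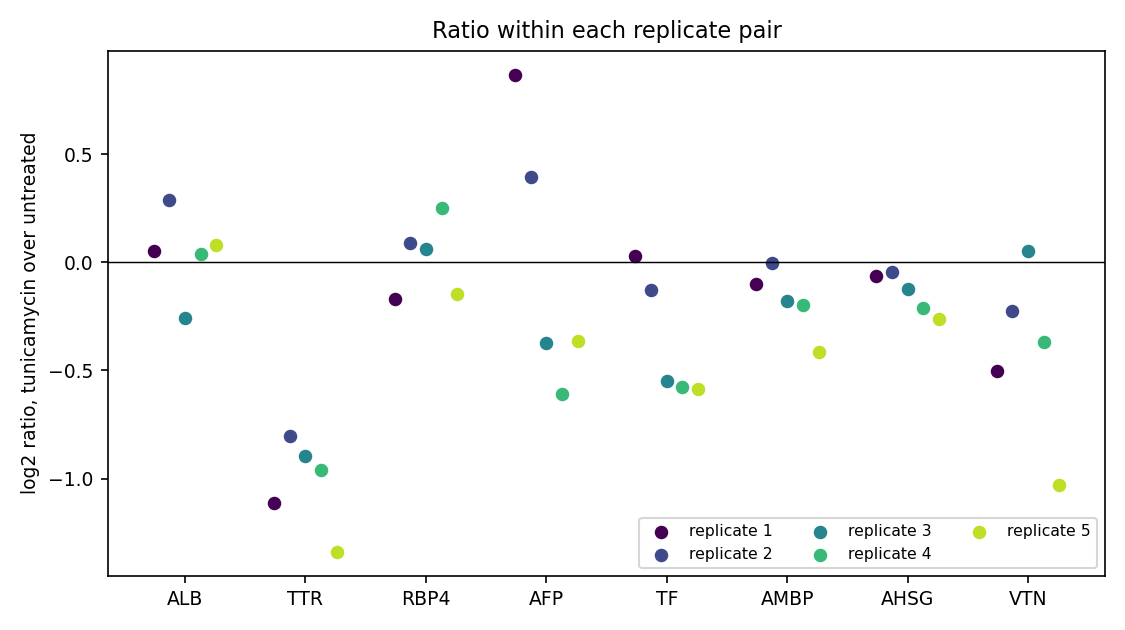
Log2 ratio of normalized counts, tunicamycin over untreated, within each of the 5 replicate pairs for the 8 members with more than a few counts; each point is a pair and the line marks no difference. All 5 points of TTR lie at or below -0.80, and those of AFP run from -0.61 to 0.87.

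Transferrin (TF, ENSG00000091513), which carries iron to cells, had 4052, 5253, 6194, 6963 and 6256 normalized counts in untreated replicates 1 to 5. With tunicamycin it had 4135, 4800, 4233, 4671 and 4169. The treated libraries were close together and overlapped the untreated ones only through untreated replicate 1, which also had the lowest ALB and AFP. TF fell to 76.6% of its untreated level, a log2 fold change of -0.38 (standard error 0.12, edgeR's quasi-likelihood test, adjusted p = 0.0145), and was lower in 4 of 5 pairs. The exact two-sided permutation p over libraries, a test that ignores the pairs, was 0.0556. With the replicate number as a block in edgeR's fit, the log2 fold change was -0.36 (adjusted p = 0.00286). Leaving out untreated replicate 4 gave -0.30 and ended the call (adjusted p = 0.0564), while leaving out untreated replicate 1 gave -0.49 (adjusted p = 0.000215). In GENCODE v44 the gene ENSG00000291042, on the same strand, overlaps exons of TF but not its last exon. An exon of SRPRB on the same strand shares 122 bases with that last exon, which is 18056 bases long. SRPRB, a subunit of the signal recognition particle receptor that was looked up after this overlap was seen, rose to 1412 ± 134 from 746 ± 42.1 normalized counts (mean ± SD, n = 5 per condition), and its part in the counts of TF was not tested.

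Fetuin-A (AHSG, ENSG00000145192), a mineral-binding protein made in quantity by fetal liver, had 9618, 9182, 10393, 10451 and 10678 normalized counts in untreated replicates 1 to 5. With tunicamycin it had 9196, 8915, 9543, 9040 and 8896. It was lower in 5 of 5 pairs but by little, from -0.26 to -0.04 on the log2 scale, and the groups overlapped. The log2 fold change was -0.14 with a 95% confidence interval of -0.30 to 0.02 (edgeR's quasi-likelihood test, adjusted p = 0.158). The exact permutation test of this gene alone gave a two-sided p of 0.0238, without adjustment.

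AMBP (ENSG00000106927), whose precursor is cut into α1-microglobulin, a heme scavenger, and the protease inhibitor bikunin, had 4903, 4541, 5142, 5042 and 5608 normalized counts in untreated replicates 1 to 5. With tunicamycin it had 4576, 4536, 4546, 4399 and 4201. It too was lower in 5 of 5 pairs, and only untreated replicate 2 lay within the range of the treated libraries. The log2 fold change of -0.18 (standard error 0.08) did not pass in edgeR's quasi-likelihood test (adjusted p = 0.0863) but did in DESeq2 (adjusted p = 0.0333). Its 95% confidence interval of -0.35 to -0.01 holds no decrease as large as that of TTR.

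Vitronectin (VTN, ENSG00000109072), an adhesion protein that binds integrins, was a low transcript in these cells. Untreated replicates 1 to 5 had 94.7, 103, 67.4, 103 and 116 normalized counts. With tunicamycin the values were 66.7, 88.3, 69.9, 79.7 and 56.5. The groups overlapped through untreated replicate 3, and 4 of 5 pairs were lower. The log2 fold change was -0.41 (standard error 0.16), with an adjusted p of 0.0563 by edgeR. With the replicate block it was -0.39 and passed (adjusted p = 0.0448), and it also passed without untreated replicate 3 or without tunicamycin replicate 2 (adjusted p = 0.0145 and 0.0399), so its call rests on the choice of fit. In GENCODE v44 the gene ENSG00000273171, on the same strand, overlaps the last exon of VTN, and it had 0 counts in all 10 libraries.

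The lowest members were FETUB and GC. FETUB (ENSG00000090512), an inhibitor of ovastacin, the protease that hardens the coat of the egg, had 9, 3, 6, 11 and 4 raw counts in untreated replicates 1 to 5 and 2, 3, 0, 5 and 1 with tunicamycin. Its log2 fold change of -1.20 had a 95% confidence interval of -2.52 to 0.12 and did not pass (edgeR's quasi-likelihood test, adjusted p = 0.151). The estimate was -0.19 once all libraries had been thinned to equal depth and -1.81 without tunicamycin replicate 4. In GENCODE v44 exons of HRG-AS1 on the opposite strand overlap its own. GC (ENSG00000145321) had 0 counts in all 5 untreated libraries, which together allow up to 3 expected counts, and 1 count in each of tunicamycin replicates 1 and 2. It was not tested, and no change was detectable at this depth. Other relatives or neighbours of members were low as well. AFM, which follows AFP, had at most 3 counts in any library, HRG had 0 in 9 libraries and 3 in tunicamycin replicate 4, and KNG1, the bradykinin precursor, fell to 3.87 ± 1.7 from 12.1 ± 4.72 normalized counts (mean ± SD, n = 5 per condition, edgeR's quasi-likelihood test, adjusted p = 0.00897).

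**Figure D3:**
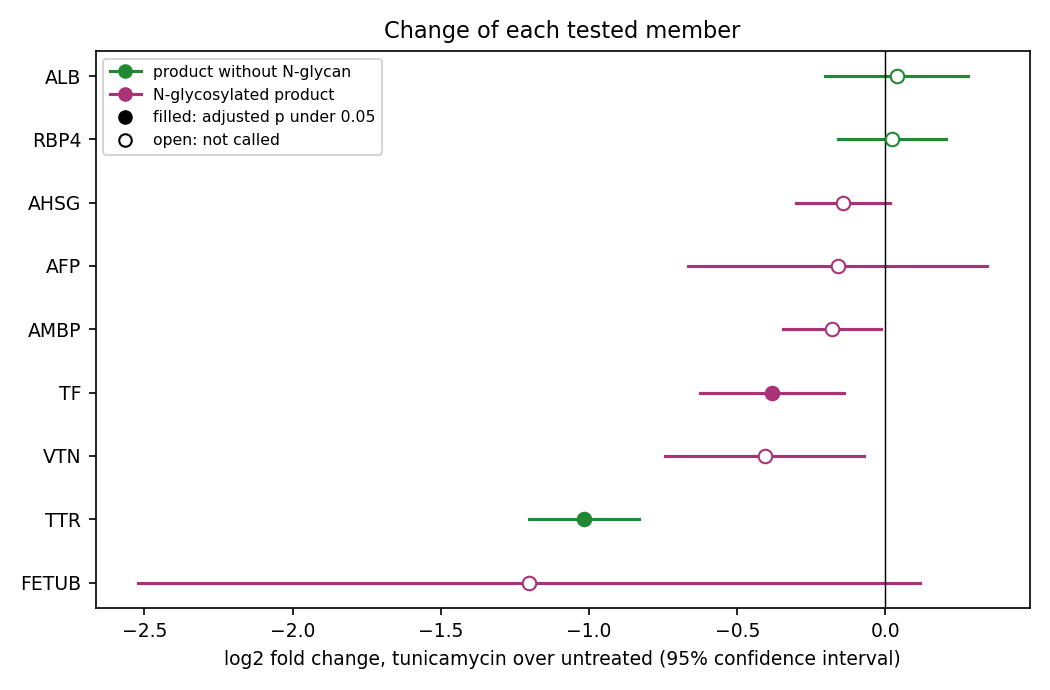
Log2 fold change, tunicamycin over untreated, of the 9 tested members with the 95% confidence interval from edgeR's quasi-likelihood fit; green marks products without N-glycans, purple N-glycosylated products, and filled points the called genes. TTR at -1.02 and TF at -0.38 are filled, and the intervals of ALB (-0.20 to 0.28) and RBP4 (-0.16 to 0.21) lie around 0.

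Set by glycosylation, the 6 tested members with N-glycosylated products ranged from -1.20 to -0.14 on the log2 scale (median -0.28), the lower end resting on the few counts of FETUB. Their median was -0.18 with no filter, where GC was included, and -0.19 with default minimums, where FETUB was not tested. The 3 without N-glycans ranged from -1.02, that of TTR, to 0.04 (median 0.02). The median over all tested genes was -0.003. Over the 5 pairs the medians ran from -0.50 to -0.02 for the N-glycosylated and from -0.26 to 0.09 for the other members, so these ranges overlapped. Members are not replicates, and no test was made between the classes. In the main fit every estimate among the 6 tested N-glycosylated members was below 0, but only that of TF was called. GC was not tested. The direction of AFP was not settled, since its estimate was 0.03 without untreated replicate 4. The decrease of TTR, without a glycan, was larger than that of the 5 tested N-glycosylated members other than FETUB.

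A related question was put to 79 tested secreted plasma proteins outside the members, from a hand-written list. They were grouped by the number of sequons in their precursors, not by known N-glycans as the members were. A sequon is not proof of a glycan, and TTR, classed without N-glycans, has 1. Beside these groups, 16.6% of all tested genes were called lower and 17.6% higher. With 0 sequons, 10 of 16 genes were called lower and 1 higher, and their median log2 fold change was -0.61. With 1 to 2 sequons, 6 of 14 were lower and 1 higher (median -0.45), and with 3 or more, 27 of 49 were lower and 7 higher (median -0.60). These medians did not order by the number of sequons. With N-X-T alone they were -0.61, -0.59 and -0.48. Among genes with a mean of at least 20 normalized counts they were -0.62, -0.54 and -0.52. In both of these alternatives the median decrease was smaller with more sequons, but the medians lay close together beside the spread within classes. The SD over genes within these classes ran from 0.667 to 1.44. Genes with 0 sequons include APOA1, APOA2, APOA4, APOA5, APOC1, APOC3 and APOE, while APOM, APOB and APOH have sequons. Sequon number was not separated from gene family, and no test was made between the classes. APOA1, the main protein of HDL and a product with 0 sequons, fell to 4781 ± 360 from 8973 ± 571 normalized counts, and CPB2, a fibrinolysis inhibitor with 5 sequons, fell from 213 ± 12.3 to 35.6 ± 4.56 (mean ± SD, n = 5 per condition).

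Across that list, 43 of the 79 genes were lower and 9 higher, with a median of -0.60, beside 2 lower of 9 tested members. Of all tested genes, 16.6% were called lower and 17.6% higher. Of 18 tested plasma carriers outside the members, 9 were lower and 4 higher (median -0.59). All of these carriers but LCN2 are also in the list of 79, so the 2 medians are not independent. SERPINA7, the thyroxine-binding globulin and so a second thyroid hormone carrier beside TTR, fell to 128 ± 9.71 from 404 ± 85.6 normalized counts (mean ± SD, n = 5 per condition). SERPINA6, the cortisol carrier, fell from 555 ± 41.9 to 306 ± 45.4. Against these, SELENOP (listed as SEPP1), which carries selenium, rose from 1330 ± 272 to 1827 ± 214, and IGFBP1, a binder of insulin-like growth factors, rose from 137 ± 23 to 2338 ± 296. The abundant members ALB, RBP4, AHSG and AMBP were thus not among the carriers that were called, although whether the members differed from the list was not tested.

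Genes that mark fetal liver or are shared by fetal liver and hepatoma were counted beside AFP. H19 was on this list but has no row in the deposited counts, so it could not be measured. Of 16 tested genes of this list, AFP included, 7 were called lower and 1 higher after tunicamycin (median log2 fold change -0.26). Of all tested genes, 16.6% were lower and 17.6% higher, and whether the list differed from them was not tested. PEG10, an imprinted gene derived from a retrotransposon, fell to 1756 ± 115 from 3874 ± 313 normalized counts, and IGF2, the fetal growth factor, fell from 5383 ± 268 to 4069 ± 260 (mean ± SD, n = 5 per condition). IGF2BP1, which binds IGF2 mRNA, fell from 743 ± 61.1 to 572 ± 51.5, and SOX4 rose from 505 ± 48.6 to 817 ± 145. AFP was among the 8 that were not called.

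Transcription factors known to act on the promoters of albumin and its relatives were 23 tested genes, of which 5 were called lower and 3 higher (median log2 fold change -0.01). CEBPA, a factor of the mature hepatocyte, fell to 442 ± 40.1 from 548 ± 19 normalized counts (mean ± SD, n = 5 per condition). CEBPB, the stress-responsive relative of CEBPA, rose from 145 ± 11 to 419 ± 66.5, and FOXA2 rose from 480 ± 52.7 to 673 ± 23.2. HNF4A had 433 ± 50.3 and 518 ± 59.9 and was not called (adjusted p = 0.0586), though it was with the replicate block (adjusted p = 0.0165). Both counts were near the background of 16.6% lower and 17.6% higher, so they are not a result about these factors, and the relation of the factors to ALB was not tested.

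Among the genes whose levels ran most like AFP over the 10 libraries were HSPE1, a mitochondrial chaperonin, with a Pearson's r of 0.98, and ALDH18A1, an enzyme of proline synthesis (0.967), of 9706 genes compared on the log2 scale. Neither was called between conditions. For ALB they were FUCA2 (0.965), PARD6G (0.942) and ADPGK (0.933). These are the highest of many correlations. The libraries differ in depth, and those with the same replicate number share a day. The correlations are given as a description.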

How the data were processed

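The deposited table holds raw counts per gene for 10 libraries, without a filter on low counts. The authors made the counts with the nf-core RNA-Seq pipeline on hg19 with Ensembl transcripts. Whether counting used the strand is not given in the sources used here. Genes were filtered with filterByExpr (minimum count 2, minimum total 10, by condition) as in the study, scaled by TMM and tested with edgeR 4.0.16 (R 4.3.3), quasi-likelihood, with condition as the only term and Benjamini-Hochberg adjustment over all tested genes. The standard error is the absolute log2 fold change over the square root of F. Pair ratios used a pseudocount of 0.5. The script was tested on simulated data.

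Alternatives were DESeq2 1.42.0, its size factors in edgeR, library size only, scaling without the members, no filter, default minimums, the replicate block, thinning to the smallest library and each library left out; leaving out both libraries of replicate 1 was added after seeing the data. Replicate numbers pair libraries by day per the series text; paired deviations correlated at 0.0197 to 0.36 over 9707 genes. Depth of 2234682 to 5029864 counts limits genes with few counts.

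The members and lists were chosen with earlier results of these data known, the lists after the study had been read. Named are all members, AFM, HRG, KNG1, HSPA5, up to 4 genes per direction and list with the smallest adjusted p and a mean of at least 20 normalized counts, and the 3 genes most like AFP and ALB; other genes named (HNF4A, TFRC, TFR2, SRPRB, cell markers) were added after values were seen. Results for some genes that the rule names are not reported here. Sequons come from translated GENCODE v44 transcripts, with in-frame TGA read as selenocysteine in SELENOP, since a protein table was not used here, and promoters from RefSeq; neither is on the counts' build, and genes were matched by identifier or symbol.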

Additional observations from a re-analysis of the deposited data

Results flagged for a closer look

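Of 32 sets of 5 values (each a gene or a library measure in a condition) 3 held a value far outside the remaining 4. About 1.6 such sets arise by chance if values are normally distributed, which does not hold for genes near 0 counts. A set with counts in a single library is always flagged, as were those of AFM and HRG. AFP had 7554 normalized counts in tunicamycin replicate 1, against 10413 to 11099 in the other treated libraries. AFM had 0.845 normalized counts in tunicamycin replicate 1, which is 1 read, and 0 in the others. HRG had 4.12 normalized counts in tunicamycin replicate 4, which are 3 reads, and 0 in the others.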

How the results depend on the processing

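TTR kept its direction and its call in every alternative run, with log2 fold changes of -1.05 to -0.98 over the fits that left out a library. Library size as the only scaling called 4 members lower in place of 2, with AMBP at -0.26 and VTN at -0.49, turned ALB to -0.052 and RBP4 to -0.066, and changed the split of all calls from 51.4% to 40.8% higher. AMBP was also called in DESeq2 (-0.18), and VTN with default minimums (-0.41) and with the replicate block (-0.39), which changed no other member's call. Leaving out each library gave 1 to 3 members called lower, -0.029 to 0.11 for ALB, -0.034 to 0.066 for RBP4 (0.076 without both libraries of replicate 1), -0.38 to 0.033 for AFP, -0.49 to -0.30 for TF and -0.51 to -0.34 for VTN. FETUB ran from -1.81 to -0.84 over the same fits and was -0.19 with thinned counts. The median of the N-glycosylated members was -0.18 with no filter and -0.19 with default minimums. The median for 3 or more sequons moved to -0.48 with N-X-T alone. FETUB was not tested with default minimums. The causes were not tested. FETUB and GC are limited by depth.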

Other observations

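Receptors and partners of the carriers were measured in the same libraries. Of 19 tested genes, 4 were called lower and 4 higher (edgeR, adjusted p below 0.05), and the median log2 fold change was 0.13, with both counts near the 16.6% and 17.6% of all tested genes called lower and higher. FCGRT, the receptor that rescues albumin from breakdown, fell to 414 ± 38 from 604 ± 68.1 normalized counts (mean ± SD, n = 5 per condition). For vitronectin, the integrin subunit gene ITGAV rose from 255 ± 31.3 to 399 ± 32.1, and ITGB5 fell from 845 ± 76.2 to 695 ± 63.4. For transferrin, the receptor genes TFRC (log2 fold change 0.02, adjusted p = 0.925) and TFR2 (-0.31, adjusted p = 0.214) were not called, while STEAP3, which reduces the iron that transferrin delivers, rose from 58.9 ± 17.3 to 124 ± 26.5. For bikunin, which is joined to the inter-α-inhibitor heavy chains, ITIH2 rose from 1281 ± 306 to 1781 ± 390 and ITIH3 fell from 41.5 ± 3.3 to 25 ± 7.71.

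Of 12 tested genes of adult hepatocyte metabolism, 2 were lower and 0 higher (median log2 fold change 0.08), the lower share being that of all tested genes (16.6%). CYP27A1, a sterol hydroxylase of bile acid synthesis, fell to 521 ± 76.5 from 918 ± 79.2 normalized counts (mean ± SD, n = 5 per condition).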
